A study of Mus musculus with 4 samples.

Results

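Simple epithelial keratins and their usual partners were followed in mouse liver tumours made with c-MYC and AKT, with or without added KLF2, a transcription factor of the Krüppel-like family. The set holds 10 genes chosen by name: the type II keratins Krt7, Krt8 and Krt80, the type I keratins Krt18, Krt19, Krt20 and Krt23, the tight junction protein Cldn4, the epithelial transcription factor Elf3 and the adhesion molecule Epcam. They are 10 of 28667 genes listed in the 3 libraries analysed, and every library listed all 10. Krt7, Krt19, Krt23, Krt80, Cldn4, Elf3 and Epcam were higher in tumour cells of the KLF2 libraries than in those of the vector library. Krt8 and Krt18, the pair that hepatocytes make, were not. The vector cells taken as tumour cells were all hepatocyte-like by their markers and nearly all KLF2 tumour cells were not, so cell type and treatment cannot be told apart. Most Krt80 UMIs of the KLF2 tumour cells lay in a small cluster of 36 and 105 cells.

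Keratins form filaments only as pairs of a type I and a type II chain, and Krt8 with Krt18 is the pair of simple epithelia, hepatocytes included. Bile duct cells add Krt7 and Krt19 to that pair, and Epcam marks bile duct and progenitor cells of the liver more than mature hepatocytes. Krt20 is known from intestinal lining, Krt23 from stressed or diseased liver and gut, and Krt80 from stratified and cornifying epithelium. Cldn4 seals tight junctions, and Elf3 is an ETS-family activator of epithelial genes.

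Male C57BL/6 mice received plasmids for c-MYC (pT3-EF1α-c-MYC) and for AKT (pT3-EF1α-AKT), together with SB100X transposase, by tail vein at 8 weeks of age, and tumours were taken 10 weeks later. The vector group also received the empty pT3 plasmid and the KLF2 group pT3-EF1α-KLF2, so both groups carry c-MYC and AKT, and the EF1α promoter is not limited to 1 cell type. Each group has 2 mice with a library each, but the counts of vector replicate 1 were not analysed here, which leaves 1 vector library (replicate 2) against 2 KLF2 libraries. Only liver cells that took up the plasmids can carry them, and the labels give no way to tell those cells from the rest.

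The libraries held 45594544 UMIs (unique molecular identifiers, 1 per captured RNA molecule) in vector replicate 2, 95374838 in KLF2 replicate 1 and 125458473 in KLF2 replicate 2. After filtering, 8403, 6209 and 11103 cells stayed. The vector library stood apart in quality, with a median of 16.3% mitochondrial UMIs over its barcodes against 0.227% and 0.35% in the KLF2 libraries. Klf2 itself measured 139 CPM (UMIs of the gene per 1000000 UMIs of the cells summed) in vector tumour cells and 349 and 378 in KLF2 tumour cells, a log2 difference of 0.64 (SE 0.27) that did not pass the edgeR quasi-likelihood test (adjusted p = 0.132). Whether the plasmid's KLF2 transcript was counted under that gene is not given in the sources used here. Barcode names are running numbers, and 550 to 1146 of them were shared between pairs of the 3 libraries.

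Tumour cells were taken as all clusters that were hepatocyte-like by markers such as Alb and Apoa1, or that had no name and little of the blood cell gene Ptprc, the endothelial gene Pecam1 and the collagen genes Col1a1 and Col3a1. This compartment, whose cells are called tumour cells here although no label marks a cell as tumour, held 584 cells in vector replicate 2, 4519 in KLF2 replicate 1 and 8059 in KLF2 replicate 2. None of the 10 genes was used to cluster or name the cells. All 584 vector cells were hepatocyte-like, against 10 and 47 cells in KLF2 replicates 1 and 2. The other 4509 and 8012 KLF2 cells had no name and nearly no Alb, so cell type and treatment cannot be told apart in the compartment. An unnamed cluster led by S100a8 and mitochondrial genes held 1498 vector cells, 17.8% of that library. It stayed outside the compartment with 158 CPM of Ptprc, where the limit was 100. The vector hepatocyte-like cluster itself held 50.6 CPM of Ptprc, and what the 1498 cells are was not tested. No cluster met the rule for bile duct cells, which rested on markers such as Sox9 and Spp1 and on none of the 10 genes. The unnamed clusters are therefore called by genes of largest fold in them, not always the first in rank. With 1 vector library, p-values measure only the spread between the KLF2 libraries, and in summed counts fewer expressing cells and less RNA per cell are mixed. T/NK-like cells, which make no keratins, serve below as a level of free RNA.

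The sequences in front of 5 of the genes are shown because Krt8 with Krt18 and Krt7 with Cldn4 moved as pairs over the clusters, while Krt23 moved apart from Krt8. Krt8 and Krt18 also lie next to each other on chromosome 15, at chr15:101996698-102004482 on the minus strand and chr15:102028180-102032027 on the plus strand in GRCm38, with 23697 bp between them. Each line gives the 250 bases before the RefSeq transcript start in GRCm38.p6, for Krt8 (chr15:102004343-102004592, minus strand), Krt18 (chr15:102027966-102028215, plus), Krt7 (chr15:101412153-101412402, plus), Cldn4 (chr5:134946935-134947184, minus) and Krt23 (chr11:99493121-99493370, minus). Capitals mark matches, on either strand, to CACCC (the core of sites bound by KLF factors), GGGCGG (the GC box), GGAAG (a core of ETS sites), TGANTCA (the AP-1 site) or TATAAA (the TATA box).
Krt8: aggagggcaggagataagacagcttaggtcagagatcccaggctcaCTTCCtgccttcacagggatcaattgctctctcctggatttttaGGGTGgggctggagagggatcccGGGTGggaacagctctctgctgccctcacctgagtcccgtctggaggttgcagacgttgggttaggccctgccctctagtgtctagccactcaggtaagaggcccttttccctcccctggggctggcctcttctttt
Krt18: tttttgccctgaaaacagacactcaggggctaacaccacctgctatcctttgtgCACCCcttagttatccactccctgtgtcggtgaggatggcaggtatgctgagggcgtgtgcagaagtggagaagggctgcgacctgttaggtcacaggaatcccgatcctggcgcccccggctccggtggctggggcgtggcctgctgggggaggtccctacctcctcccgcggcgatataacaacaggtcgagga
Krt7: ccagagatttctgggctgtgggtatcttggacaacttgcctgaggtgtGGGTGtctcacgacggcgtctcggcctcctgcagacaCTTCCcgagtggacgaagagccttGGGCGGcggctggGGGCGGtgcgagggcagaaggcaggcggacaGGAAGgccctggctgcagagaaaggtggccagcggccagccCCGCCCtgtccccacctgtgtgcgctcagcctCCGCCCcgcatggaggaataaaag
Cldn4: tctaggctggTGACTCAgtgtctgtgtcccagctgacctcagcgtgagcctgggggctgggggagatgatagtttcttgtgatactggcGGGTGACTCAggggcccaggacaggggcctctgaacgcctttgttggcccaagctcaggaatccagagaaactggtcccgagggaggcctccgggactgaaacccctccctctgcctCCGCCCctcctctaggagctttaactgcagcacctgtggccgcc
Krt23: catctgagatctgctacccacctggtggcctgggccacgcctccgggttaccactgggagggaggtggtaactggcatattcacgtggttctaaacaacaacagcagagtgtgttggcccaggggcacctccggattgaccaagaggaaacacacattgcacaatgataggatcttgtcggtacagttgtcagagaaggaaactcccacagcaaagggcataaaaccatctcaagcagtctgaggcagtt
The Krt8 stretch held 2 CACCC matches and 1 GGAAG match, and the Krt18 stretch held 1 CACCC match. The Krt7 stretch held 4 GGGCGG, 2 GGAAG and 1 CACCC matches, and the Cldn4 stretch 2 TGANTCA, 1 GGGCGG and 1 CACCC match, of which a TGANTCA match overlaps the CACCC match. The Krt23 stretch held none of the 5 motifs. Of 32851 RefSeq promoter stretches of the same length, 52.0% held CACCC, 32.7% GGGCGG, 64.1% GGAAG, 6.75% TGANTCA and 12.4% TATAAA. A match is a match of letters only. RefSeq and GENCODE M21 place some starts differently, and the Krt7 stretch lies inside the GENCODE gene (chr15:101411043-101430313). The Krt8, Krt18 and Krt23 stretches run partly into their GENCODE genes. Sequences matched 8 of the 10 genes, all but Krt19 and Krt80.

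Krt8 and Krt18, the hepatocyte pair, did not pass the test of KLF2 against vector. Krt8 measured 502 CPM in vector replicate 2, 302 in KLF2 replicate 1 and 598 in KLF2 replicate 2. The vector value lay between the KLF2 values, so the groups overlapped. After TMM scaling, which sets libraries by the bulk of their genes, the Krt8 values were 709, 255 and 502, so that the vector library came out highest. The fitted log2 difference of KLF2 from vector was -0.91 (SE 0.44) and did not pass the edgeR quasi-likelihood test (adjusted p = 0.176). Krt18 was alike, at 391 CPM in vector replicate 2, 282 in KLF2 replicate 1 and 547 in KLF2 replicate 2, with a log2 difference of -0.66 (SE 0.43, edgeR adjusted p = 0.297). For both genes the order of vector replicate 2 and KLF2 replicate 2 thus turns with the scaling.

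Krt7 and Krt19, the keratins that bile ducts add, were both higher in KLF2 tumour cells. Krt7 measured 11.97 CPM in vector replicate 2 against 274 and 385 in KLF2 replicates 1 and 2, a log2 difference of 4.03 (SE 0.41, edgeR adjusted p = 0.00205). Krt19 measured 14.02 CPM in vector replicate 2 against 130 and 198, a log2 difference of 2.80 (SE 0.40, edgeR adjusted p = 0.00562). Both KLF2 libraries lay above the vector library for each gene. Epcam, which marks the same lineage, measured 24.6 CPM against 119 and 185, and rose by 1.88 on the log2 scale (SE 0.38, edgeR adjusted p = 0.0165). The sum of the 14 bile duct markers did not separate the groups, at 484 CPM in the vector compartment against 336 and 610 CPM.

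Krt23 showed the largest fitted rise among the members with vector UMIs. It measured 2.05 CPM (6 UMIs) in vector replicate 2 against 89.1 in KLF2 replicate 1 and 131 in KLF2 replicate 2, a log2 difference of 4.99 (SE 0.50, edgeR adjusted p = 0.00202). Krt80 had no UMI in the 584 vector cells, which allows up to 1.03 CPM (3 UMIs), and measured 8.48 and 9.76 CPM in the KLF2 libraries. With both libraries TMM-scaled, the lower KLF2 value was at least 4.94-fold higher than 3 vector UMIs would be, and Krt80 passed the edgeR test (adjusted p = 0.00505). Bounds for other genes without vector UMIs are given in the same way, and only where the lower KLF2 value exceeds 3 vector UMIs. Every bound is thus a rise, and genes without one are left out of medians with bounds. Krt20, the intestinal keratin, was rare everywhere, at 3.76 CPM (11 UMIs) in vector replicate 2, 0.160 (11 UMIs) in KLF2 replicate 1 and 2.87 (288 UMIs) in KLF2 replicate 2. Both KLF2 values of Krt20 lay below the vector value, with a wide gap between them, and the log2 difference of -2.05 (SE 1.56) did not pass (edgeR adjusted p = 0.374).

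Cldn4 and Elf3 rose with Krt7. Cldn4 measured 2.74 CPM (8 UMIs) in vector replicate 2 against 56.4 and 150, a log2 difference of 4.49 (SE 0.89, edgeR adjusted p = 0.0157). Elf3 measured 8.21 CPM (24 UMIs) against 171 and 364, a log2 difference of 4.28 (SE 0.64, edgeR adjusted p = 0.0065). KLF2 replicate 2 was above KLF2 replicate 1 for both, and both were above the vector library.

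In all, 7 of the 10 genes were called higher and 0 lower by edgeR. Over all 19947 genes tested in the compartment, 17.9% were called higher and 12.4% lower. The median log2 difference was 3.42 over the 10 genes (2.55 with Krt80 at its bound) and 0.68 over all genes tested (0.21 over the 15843 with a fold or a bound). The middle gene was thus itself above 0, with 5091 of the genes tested at 0 UMIs in the vector cells, and relative to 0.68 Krt7 stood at 3.35, Krt19 at 2.12, Krt23 at 4.31, Cldn4 at 3.81, Elf3 at 3.598, Epcam at 1.20, Krt8 at -1.59 and Krt18 at -1.34.

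**Figure D1:**
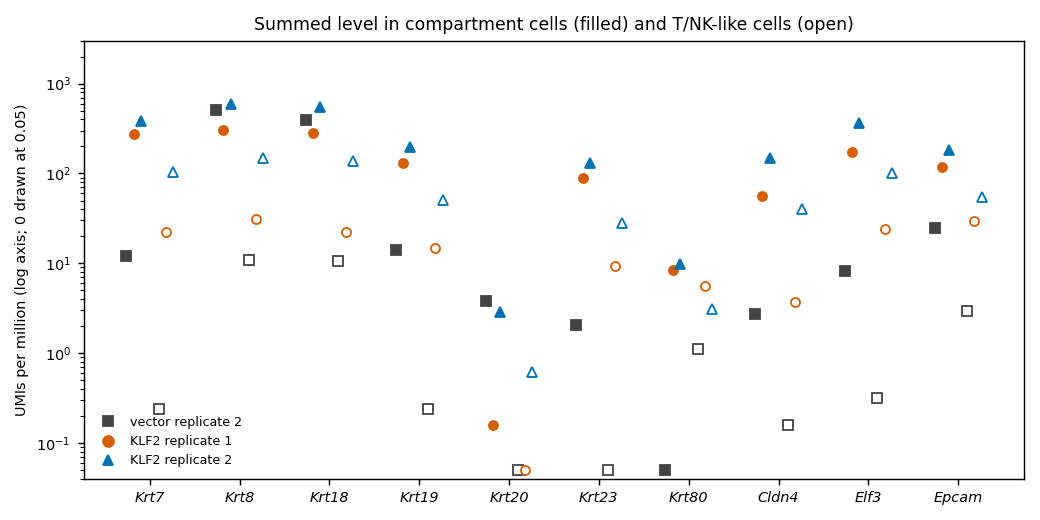
Summed level of each gene in CPM (log axis) in compartment cells (filled) and T/NK-like cells (open), with a point per library and no error bar because each point is 1 library. The filled points of Krt7, Krt19, Krt23, Cldn4, Elf3 and Epcam are higher in both KLF2 libraries than in the vector library, and those of Krt8 and Krt18 overlap.

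Free RNA was not the same in the 3 libraries. T/NK-like cells carried 10.9 CPM of Krt8 in vector replicate 2, 31.4 in KLF2 replicate 1 and 148 in KLF2 replicate 2, from 3138, 89 and 383 cells. The Krt7 level in T/NK-like cells was 0.238, 22.2 and 104 CPM, and the Elf3 level was 0.318, 24.0 and 101 CPM. The genes that rose in tumour cells were thus also higher in T/NK-like cells of both KLF2 libraries, at lower levels than in the tumour cells of the same library. Other measures moved with the groups too: compartment cells had a median of 3117 UMIs in vector replicate 2 against 8679 and 6667, and a median of 12.8% mitochondrial UMIs against 0.214% and 0.325%. The 10 T/NK markers summed to 319 CPM in the vector compartment against 12.5 and 43.0 CPM. The 16 dissociation stress genes summed to 2960 CPM in the vector compartment against 7346 and 11143 CPM. Of them 6 were called higher and 2 lower, which is 37.5% and 12.5%, beside 17.9% and 12.4% over all genes tested. In T/NK-like cells the order of the sums was the other way, at 12905 CPM in vector replicate 2 against 5535 and 7516 CPM. The part of these in the members' differences was not tested.

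Shares of cells gave the same order for most members. With every cell thinned to 1000 UMIs, 563, 4519 and 8059 compartment cells were deep enough, in the order vector replicate 2, KLF2 replicate 1 and KLF2 replicate 2. Krt7 was seen in 0.710% of vector cells (exact 95% interval 0.194 to 1.81), 16.4% of KLF2 replicate 1 cells (15.3 to 17.5) and 24.99% of KLF2 replicate 2 cells (24.0 to 26.0). Unthinned, the Krt7 shares were 2.23%, 45.2% and 58.2%. The intervals cover counting error only, and those of the KLF2 libraries lay well above the vector interval.

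Krt23 was seen in 0.355% of vector cells (0.0431 to 1.28), 6.86% (6.14 to 7.64) and 9.99% (9.34 to 10.7) of KLF2 cells after thinning, and in 0.856%, 35.7% and 43.6% of all cells unthinned. Krt8 was seen in 23.4% of vector cells (20.0045 to 27.2), 16.4% (15.4 to 17.6) of KLF2 replicate 1 cells and 31.8% (30.8 to 32.9) of KLF2 replicate 2 cells after thinning, and unthinned in 46.7%, 44.5% and 66.5%. The vector share of Krt8 again lay between the KLF2 shares. T/NK-like cells, thinned alike, had Krt8 in 1.27%, 3.37% and 14.6%, Krt7 in 0.0327%, 2.25% and 11.5%, and Krt23 in 0%, 0% and 2.09%, where 0 of 3061 and of 89 cells allows up to 0.098% and 3.37%. In each library the compartment share of these genes was above the T/NK-like share.

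Inside the KLF2 compartment the members were uneven. The cluster led by S100a14 and Ly6d held 514 cells of KLF2 replicate 1 and 1066 of KLF2 replicate 2, which is 11.4% and 13.2% of the compartment, and 65.2% and 65.4% of its Krt8 UMIs. These cells were also deep, with medians of 18241 and 20418 UMIs. Krt8, Krt18, Krt19 and Krt7 stood among the 10 genes of largest fold in that cluster although none of them had been used to form it. Krt8 measured 965 and 1479 CPM there, Krt18 831 and 1327, Krt7 766 and 857, and Krt19 407 and 492. Epcam measured 376 and 421 CPM, Elf3 414 and 759, and Cldn4 153 and 352. As shares of the compartment's UMIs, this cluster held 55.2% and 62.0% of Cldn4 and 64.1% and 60.2% of Epcam, but only 21.4% and 24.8% of Krt23.

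The 14 bile duct markers gave this cluster a score of 0.672, under the limit of 1.0 for a name. Among them Cldn7, a tight junction gene, measured 124 and 276 CPM, and Cdh1, the epithelial cadherin, 129 and 137. Sox9, the bile duct transcription factor, measured 45.0 and 60.2 CPM. The 14 markers summed to 751 and 1094 CPM in this cluster. The cluster led by Cdan1 and Mdga2 had a higher sum (1103 and 1405 CPM) and a higher score (0.790). That called here by Prr9 and Tchh had a higher sum (1276 and 1647 CPM) but a lower score (0.427). The S100a14 and Ly6d cluster is not called a bile duct cluster here.

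Much of the level of the hepatocyte pair in the KLF2 compartment came from this cluster. Without it Krt8 measured 132 and 281 CPM in the KLF2 libraries against 502 in the vector library, Krt18 141 and 267 CPM against 391, and Epcam 53.7 and 99.9 CPM against 24.6. The fit without it called 6 members higher and 2 (Krt8 and Krt18) lower, beside 19.0% and 13.3% of 19513 genes tested. The cluster was chosen with its Krt8 known, and taking out the cells that hold most of a gene's UMIs lowers that gene by construction, so nothing is read from these calls.

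At the other end stood the clusters led by Mt3 and Prss56 (1637 and 2027 cells) and by Lsamp and Cntn4 (899 and 1029 cells). In the Mt3 and Prss56 cluster Krt8 measured 51.5 and 87.9 CPM, Krt7 46.6 and 62.1 CPM, and Krt19 18.2 and 26.1 CPM. In the Lsamp and Cntn4 cluster Krt8 measured 46.3 and 97.8 CPM, Krt7 40.2 and 64.6 CPM, and Krt19 17.8 and 33.2 CPM. In KLF2 replicate 2 these levels of Krt8, Krt7 and Krt19 all lie below those of T/NK-like cells (148, 104 and 50.9 CPM) and are read as background. In KLF2 replicate 1 they lie above them (31.4, 22.2 and 14.8 CPM).

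Krt23 did not follow that order. It measured 96.2 and 154 CPM in the Mt3 and Prss56 cluster, about as much as the 93.4 and 122 CPM of the S100a14 and Ly6d cluster, and 57.5 and 99.1 CPM in the Lsamp and Cntn4 cluster. The T/NK-like level of Krt23 was 9.23 and 27.9 CPM. The Mt3 and Prss56 cluster alone held 53.6% and 45.9% of the compartment's Krt23 UMIs, against 8.49% and 5.72% of its Krt8 UMIs. After thinning, Krt23 was seen in 7.88% (6.62 to 9.29) and 12.4% (11.03 to 13.9) of its cells and Krt8 in 6.48% (5.33 to 7.78) and 10.1% (8.79 to 11.5). In the S100a14 and Ly6d cluster Krt23 was seen in 9.92% and 10.5% of cells, and Krt8 in 45.3% and 66.9%. Outside the compartment, the mesenchymal-like cells of the KLF2 libraries held 107 and 142 CPM of Krt23 against 0 in the vector library. Unlike clusters stand behind these values. Most of the KLF2 cells are the cluster led by Ibsp and Serpinf1, with 694 and 329 cells, 115 and 161 CPM and no vector cell, while the vector cells are all in a cluster led by Tagln and Acta2. The other KLF2 cluster, led by Col3a1 and Timp1, held 18.2 and 32.8 CPM of Krt23, close to the T/NK-like level in KLF2 replicate 2.

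**Figure D2:**
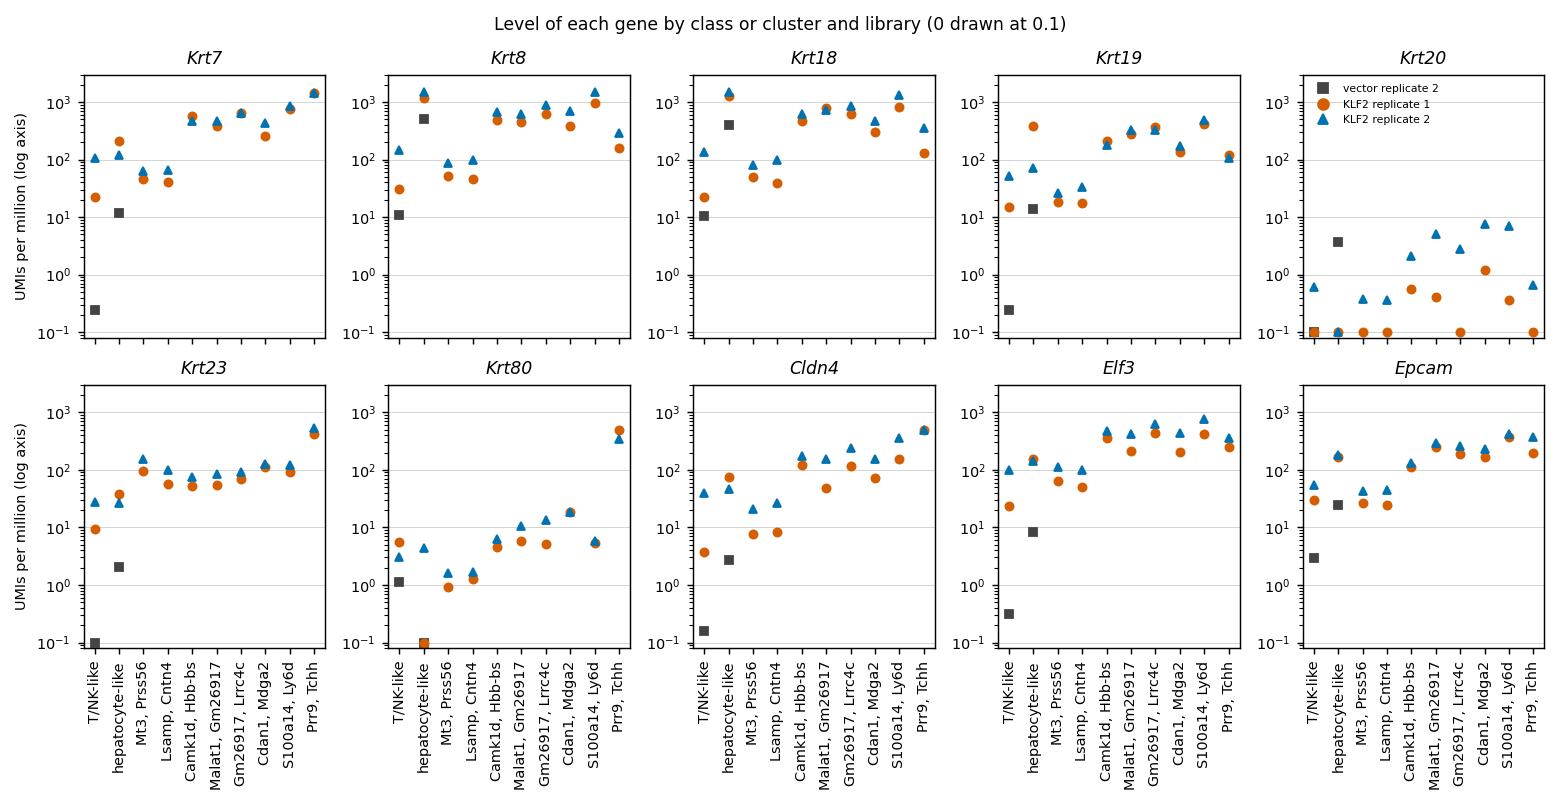
CPM (log axis) of each gene in T/NK-like cells, hepatocyte-like cells and the unnamed compartment clusters, with 1 point per library with at least 10 cells. In KLF2 replicate 2 Krt8, Krt18, Krt7, Krt19 and Epcam lie below the T/NK-like level in the Mt3 and Prss56 and the Lsamp and Cntn4 clusters and Krt23 lies above it, and Krt80 is highest in the Prr9 and Tchh cluster.

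Of the 9 clusters that hold KLF2 compartment cells, Elf3 and Krt23 were above the T/NK-like level in both KLF2 libraries in 8, and Krt7, Krt8, Krt18, Krt19, Cldn4 and Epcam in 7. No count is read for Krt20 and Krt80, whose T/NK-like cells held 0 and 1 and 3 and 5 UMIs in KLF2 replicates 1 and 2. The T/NK-like levels of Cldn4 and Krt23 in KLF2 replicate 1 also rest on only 2 and 5 UMIs. The Elf3 exception was the Lsamp and Cntn4 cluster (49.6 and 97.9 CPM), and the Krt23 exception was the hepatocyte-like cluster (37.8 and 26.4 CPM). In KLF2 replicate 2 Elf3 in the Mt3 and Prss56 cluster was only 1.13-fold the T/NK-like level. B/plasma-like cells of that library were at 1.34-fold and neutrophil-like cells at 3.40-fold, so this small excess is not read. For the other 6 the exceptions were the Mt3 and Prss56 and the Lsamp and Cntn4 clusters.

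The remaining unnamed clusters were intermediate. The cluster led by Camk1d and the haemoglobin gene Hbb-bs (717 and 1663 cells) held 486 and 674 CPM of Krt8 and 578 and 459 of Krt7. The cluster led by Gm26917 and Lrrc4c (206 and 734 cells) held 607 and 884 CPM of Krt8 and 632 and 641 of Krt7. The cluster led by Cdan1 and Mdga2 (215 and 545 cells) held 387 and 710 CPM of Krt8 and 258 and 432 of Krt7. The cluster led by Malat1, a nuclear RNA, was higher in mitochondrial UMIs than the other KLF2 compartment clusters (median 9.33% and 7.12%), and held 441 and 608 CPM of Krt8. In all 4 clusters Krt7 and Krt19 lay above the T/NK-like level of their library. Neutrophil-like cells of KLF2 replicate 2 lay above it too, at 3.49-fold for Krt7 and 3.61-fold for Krt19. Krt19 was under that neutrophil-like value in the Camk1d and Hbb-bs (3.54-fold) and Cdan1 and Mdga2 (3.33-fold) clusters of that library. It was above it in the Malat1 (6.42-fold) and Gm26917 and Lrrc4c (6.43-fold) clusters, and Krt7 was above it in all 4. The part of free RNA was not tested.

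Krt80 was concentrated in a small cluster of 36 and 105 cells led by Prr9. The name used here adds Tchh, a hair follicle gene also among its genes of largest fold, though ranked below others. Krt80 measured 494 and 341 CPM there, and the cluster held 67.1% and 52.0% of the compartment's Krt80 UMIs. Without it, Krt80 in the compartment fell to 2.82 and 4.75 CPM, against 5.54 and 3.10 CPM in T/NK-like cells of the same libraries, which rest on 3 and 5 UMIs. Myeloid-like cells held more Krt80 than that, at 13.4 CPM in vector replicate 2 and 27.8 and 12.1 CPM in the KLF2 libraries. The cluster also had the highest Krt7 of the compartment clusters (1433 and 1451 CPM), and 494 and 485 CPM of Cldn4, 423 and 534 of Krt23 but only 159 and 294 of Krt8.

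Other keratins in the Prr9 and Tchh cluster differed between the KLF2 libraries. The 46 other keratin genes summed to 13686 CPM in KLF2 replicate 1 and 1093 CPM in KLF2 replicate 2. The 36 cells of KLF2 replicate 1 had a median of 4464.5 UMIs but 794045 UMIs in all, so deep cells weigh heavily in its sums. How many cells carried each of these keratins was not counted. Krt84, a hair keratin, measured 3946 CPM in KLF2 replicate 1 and 0 in KLF2 replicate 2. Krt36, another hair keratin, measured 2015 and 38.9 CPM, Krt9 1908 and 0 CPM, and Krt14, of basal epidermis, 1762 and 95.2 CPM. Krt73, of the inner root sheath, was close in both at 377 and 239 CPM. Krt7, Krt80, Cldn4 and Krt23, whose values in these cells are given above, showed no gap of that size.

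**Figure D3:**
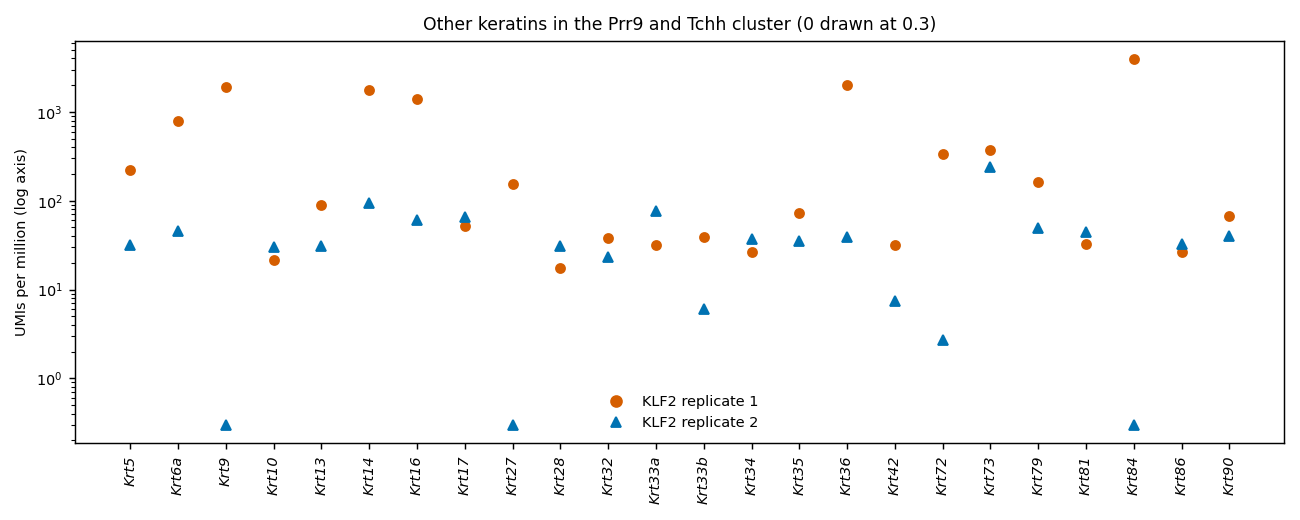
CPM (log axis) of the other keratins with at least 30 in the Prr9 and Tchh cluster, with a point for each KLF2 library and no error bar. Krt84 and Krt9 are high in KLF2 replicate 1 and at 0 in KLF2 replicate 2, while Krt73 is close in both.

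Hepatocyte-like cells allow a comparison of cells that carry the same name in both groups, though with only 10 and 47 KLF2 cells. The groups sat in different clusters, with all vector cells in the cluster led by Fabp1 and Apoa2 and all KLF2 cells in the cluster led by Hp and Clu. The summed level of the 14 bile duct markers also differed, at 484 CPM in vector replicate 2 and 1513 and 6137 CPM in KLF2 replicates 1 and 2. The KLF2 cluster scored 4.20 for hepatocyte and 1.54 for bile duct markers, and the part of these cluster differences in the values was not tested. Krt8 measured 502 CPM in vector replicate 2, 1173 (62 UMIs) in KLF2 replicate 1 and 1505 (685 UMIs) in KLF2 replicate 2. Krt18 measured 391, 1249 and 1476 CPM. Both KLF2 libraries lay above the vector library for the pair, but after scaling the log2 differences were 0.31 (SE 1.32) for Krt8 and 0.69 (SE 1.34) for Krt18, and neither passed the edgeR test (adjusted p = 0.999 for each). Without KLF2 replicate 2 the Krt8 value turned to -0.18.

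The bile duct keratins were also higher in both KLF2 libraries in hepatocyte-like cells, without passing. Krt7 measured 11.97 CPM in vector replicate 2 against 208 and 119, from 35, 11 and 54 UMIs (log2 difference 2.54, SE 1.11, edgeR adjusted p = 0.332). Krt19 measured 14.02 CPM against 378 and 72.5, from 41, 20 and 33 UMIs (log2 difference 2.61, SE 1.12, edgeR adjusted p = 0.314). Cldn4 measured 2.74 CPM against 75.7 and 46.1 and came closest to the threshold (log2 difference 3.19, SE 1.06, edgeR adjusted p = 0.0819). Elf3 measured 8.21 CPM against 151 and 145, Epcam 24.6 against 170 and 178, and Krt23 2.05 against 37.8 and 26.4, with Krt23 resting on 6, 2 and 12 UMIs. In KLF2 replicate 2 several of these levels lay near those of its T/NK-like cells, which were 104 CPM for Krt7, 50.9 for Krt19, 39.7 for Cldn4, 101 for Elf3 and 27.9 for Krt23.

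Krt20 and Krt80 had too few UMIs to be tested in hepatocyte-like cells. Of the 8 members tested, edgeR called 0, and 4 (Krt7, Krt19, Cldn4 and Elf3) had an unadjusted p under 0.05. Over all 6543 genes tested there, 2.41% were called in either direction, and 631 genes had an unadjusted p under 0.05. DESeq2's Wald test also called 0 members. The same 584 vector cells enter both comparisons, so these values are no separate check of the compartment.

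Some members moved closely together in level over 16 sums of UMIs (a cluster in a library, with at least 50 cells, 1 of them vector). Pearson's r of log2(CPM + 10) was 0.98 for Krt8 with Krt18, 0.96 for Krt7 with Cldn4, 0.92 for Krt19 with Epcam and 0.94 for Krt7 with Elf3. It was -0.09 for Krt8 with Krt23 and 0.17 for Krt8 with Krt80. Values across the close pairs were high too, at 0.84 for Krt8 with Krt19 and 0.79 for Krt8 with Epcam. Krt23 reached 0.70 with Krt80, so no separate groups are read from them. The sums share libraries and free RNA, so these values describe the pattern and carry no test.

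The genes of most similar pattern were found among 8531 genes of at least 10 CPM. For Krt8 they were Krt18 (r = 0.98), Fetub (0.96), a secreted liver protein, and Adgrg1 (0.95), an adhesion receptor. For Krt18 they were Krt8, Stxbp2 (0.96) and Fetub (0.95). For Krt7 they were Lad1 (0.96), an anchoring filament protein, Serinc2 (0.96) and Cldn4 (0.96). For Krt19 they were Espn (0.97), an actin bundler of microvilli, Fam83h (0.95) and Ap1m2 (0.95), an epithelial sorting adaptor. For Cldn4 they were S100a14 (0.96), Krt7 (0.96) and Cxcl14 (0.96), a chemokine.

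The other members had neighbours of other kinds. For Epcam they were Bspry (0.98), the desmosome gene Pkp1 (0.98) and Fut2 (0.97), a fucosyltransferase. For Elf3 they were Wscd1 (0.95), Slc30a2 (0.94), a zinc transporter, and Krt7 (0.94). For Krt23 they were Aplp2 (0.96), an amyloid precursor relative, Max (0.93), the partner of MYC, and Slc41a1 (0.93), and none of them was a keratin. For Krt80 they were Prr9 (0.99), S100a7a (0.98) and Spink13 (0.98), a pattern that rests on the Prr9 and Tchh cluster.

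**Figure D4:**
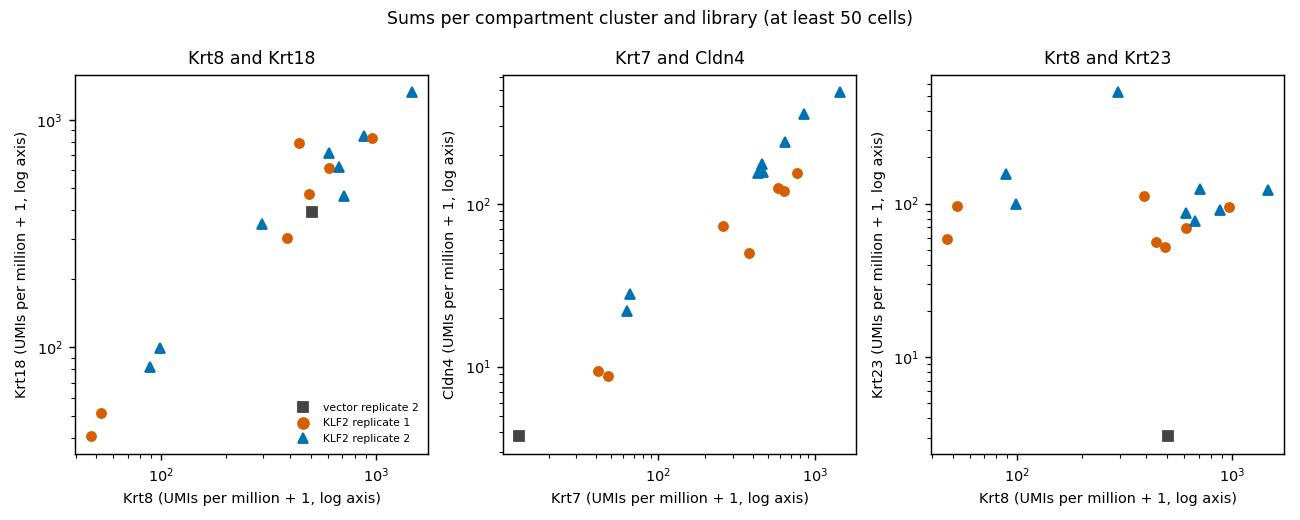
Levels of gene pairs over compartment clusters and libraries (CPM + 1, log axes), with a point per cluster and library of at least 50 cells. Krt8 with Krt18 and Krt7 with Cldn4 lie near a line (r of 0.98 and 0.96 on log2(CPM + 10)), and Krt8 with Krt23 does not (-0.09).

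The ratio of Krt8 to Krt18 UMIs was taken in each compartment cluster. UMIs were not corrected for gene length, so only its changes between cells can be read. It was 1.28 in vector tumour cells, 1.07 and 1.09 in KLF2 tumour cells, and 1.16 and 1.11 in the S100a14 and Ly6d cluster. It was lowest in the Malat1 cluster (KLF2 replicate 1 at 0.558, replicate 2 at 0.848) and in KLF2 replicate 2 of the Prr9 and Tchh cluster (0.842), and highest at 1.53 in KLF2 replicate 2 of the Cdan1 and Mdga2 cluster. The other compartment clusters with more than 10 cells in the library lay between 0.990 and 1.28.

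In the compartment of each library Krt18 was seen more often beside Krt8 than without it. After thinning, Krt18 was seen in 42.4% of the vector tumour cells with Krt8 and in 13.5% of those without. In KLF2 tumour cells these shares were 46.2% and 9.72% in replicate 1 and 52.4% and 21.04% in replicate 2. In the S100a14 and Ly6d cluster Krt18 was seen in 59.2% and 74.2% of cells with Krt8, against 25.6% and 46.5% of cells without. In T/NK-like cells, where the UMIs are free RNA, Krt18 was seen in 2.56% of vector cells with Krt8 against 1.19% of the rest. That vector share is 1 of 39 cells, too few to read. In KLF2 replicate 2 the T/NK-like shares were 21.4% (12 of 56 cells) against 13.2%. The order was the other way in the 47 hepatocyte-like cells of KLF2 replicate 2 (70.0% against 76.5%), and T/NK-like cells of KLF2 replicate 1 had only 3 cells with Krt8 and none of them with Krt18.

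Krt7 was likewise seen more in cells with Krt19. In the S100a14 and Ly6d cluster Krt7 was seen in 63.7% and 61.8% of cells with Krt19, against 34.3% and 46.2% of cells without. Krt23 showed little such link to Krt8 there, at 12.4% and 11.6% of cells with Krt8 against 8.05% and 9.37% of cells without. Cells still differed in quality and free RNA after thinning, and the part of that in these shares was not tested.

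**Figure D5:**
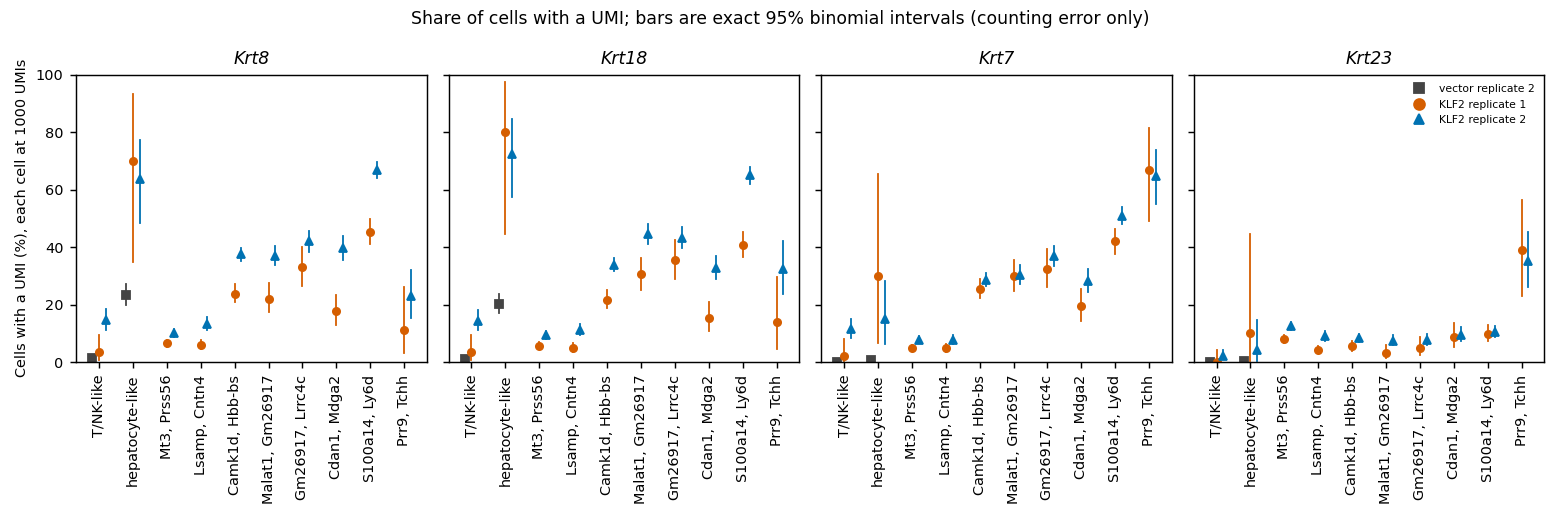
Share of cells with a UMI of Krt8, Krt18, Krt7 and Krt23 after thinning each cell to 1000 UMIs, by class or cluster and library, with exact 95% binomial intervals (counting error only). In the S100a14 and Ly6d cluster Krt8 reaches 45.3% and 66.9% of cells while Krt23 stays at 9.92% and 10.5%.

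Outside the compartment Krt8 was near the T/NK-like level in most classes. In KLF2 replicate 2, Krt8 measured 148 CPM in T/NK-like, 153 in myeloid-like, 190 in B/plasma-like, 125 in endothelial-like and 94.4 in mesenchymal-like cells. In vector replicate 2 these classes held 10.9, 11.3, 11.6, 11.6 and 13.2 CPM. Neutrophil-like cells of KLF2 replicate 2 stood apart, with 799 CPM of Krt8 and 773 of Krt18 in 136 cells, against 50.4 and 25.2 CPM in the 56 cells of KLF2 replicate 1. After thinning, Krt18 was seen in 13.8% of those neutrophil-like cells with Krt8 and in 19.6% of those without. In KLF2 replicate 1, endothelial-like cells held 101 CPM of Krt8 and 14.8 of Cldn4 against 31.4 and 3.69 in T/NK-like cells, and neutrophil-like cells held 201 CPM of Krt7 against 22.2. Krt23 in mesenchymal-like and Krt80 in myeloid-like cells, given above, also lay over the T/NK-like level.

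Related gene lists were read in the compartment beside the members. These lists were chosen with earlier results of these data known, so their counts are descriptions. Of 46 other keratins 38 could be tested, and 5 were called higher and 0 lower, which is 13.2% and 0% beside 17.9% and 12.4% over all genes tested. With 34 of the 38 at 0 UMIs in the vector cells, those could not be called lower. Krt13 had no UMI in vector tumour cells against 10.05 and 3.94 CPM in the KLF2 libraries, at least 2.28-fold higher (edgeR adjusted p = 0.0427). Krt73 was at 0 against 4.79 and 4.04 CPM, at least 2.34-fold higher (edgeR adjusted p = 0.0135). Its level was far higher in the Prr9 and Tchh cluster of 36 and 105 cells, as given above. The part of that cluster in the call was not tested. The median log2 difference, over the 12 other keratins with a fold or a bound, was 1.00, against 0.21 for all such genes. A gene without vector UMIs has a bound only where its lower KLF2 value exceeds 3 vector UMIs. Such bounds are above 0 by construction, so nothing is read from these 2 medians.

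Desmosome and junction genes moved in both directions. Of 13 desmosome and cytolinker genes 5 were called higher and 1 lower (median log2 difference 0.40). That is 38.5% and 7.69%, beside 17.9% and 12.4% over all genes tested. Pkp1, a desmosome plaque protein, rose from 2.05 CPM to 25.03 and 36.2 (log2 difference 3.15, edgeR adjusted p = 0.00733). Dsc2, a desmosomal cadherin, was at 0.684 CPM (2 UMIs) in the vector library and at 9.15 and 16.6 in the KLF2 libraries, and was called higher (edgeR adjusted p = 0.0238). Pkp2, another plaque protein, fell from 12.7 CPM to 3.16 and 5.97 (edgeR adjusted p = 0.0195).

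Of 19 tight and adherens junction genes 5 were higher and 1 lower (median 0.80 with 1 gene at its bound). That is 26.3% and 5.26%, beside 17.9% and 12.4% over all genes tested. Tjp1, the scaffold ZO-1, measured 5.81 CPM in the vector library and 34.2 and 42.1 in the KLF2 libraries (log2 difference 1.97, edgeR adjusted p = 0.00981). Marveld3 was at 0.342 CPM (1 UMI) against 10.03 and 16.7, and was called higher (edgeR adjusted p = 0.0128). Cldn2, the pore-forming claudin of leaky epithelia, went the other way from Cldn4, from 10.9 CPM to 0.189 and 0.448 (log2 difference -5.82, edgeR adjusted p = 0.0024).

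Of 14 epithelial transcription and splicing factors 7 were higher and 0 lower (median 1.88 over 13 with a fold or bound). That is 50% and 0%, beside 17.9% and 12.4% over all genes tested. With 2 of the 14 at 0 UMIs in the vector cells, those could not be called lower. Ovol1, a zinc finger factor of epithelia, was at 0 in vector cells and at 7.69 and 14.9 CPM in KLF2 cells, at least 4.48-fold higher (edgeR adjusted p = 0.0146). Esrp1, the epithelial splicing regulator, was at 0.342 CPM (1 UMI) against 18.1 and 27.1, and was called higher (edgeR adjusted p = 0.00509). Of 10 epithelial surface genes 4 were higher and 3 lower, which is 40% and 30% beside the same shares over all genes (median 0.21). St14, the protease matriptase, rose from 8.21 CPM to 163 and 144 (edgeR adjusted p = 0.0016). Muc1, a mucin, fell from 8.21 CPM to 1.05 and 1.08 (edgeR adjusted p = 0.00278), and Tspan8, a tetraspanin, from 9.57 to 2.00 and 3.39 (edgeR adjusted p = 0.0113).

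Of 13 other intermediate filament genes 2 were higher and 1 lower, which is 15.4% and 7.69% and no more than over all genes tested (median 0.31 over 8 with a fold or bound). Vim, the mesenchymal filament, rose from 115 CPM to 941 and 564 (log2 difference 1.96, edgeR adjusted p = 0.0215), and Prph, of neurons, was at 0 against 61.6 and 13.99 CPM, at least 8.10-fold higher (edgeR adjusted p = 0.0458). Nes, nestin, fell from 15.4 CPM to 1.86 and 1.09 (edgeR adjusted p = 0.0025). Of 8 mesenchymal factors 4 were higher and 1 lower (median 1.05). That is 50% and 12.5%, beside 17.9% and 12.4% over all genes tested. Snai1 was at 0 in vector cells against 15.8 and 6.39 CPM, at least 3.70-fold higher (edgeR adjusted p = 0.0287). Twist2 was at 0.342 CPM (1 UMI) against 28.1 and 24.9 and was called higher (edgeR adjusted p = 0.00219), and the cadherin Cdh2 fell from 18.5 CPM to 11.1 and 5.84 (edgeR adjusted p = 0.0286).

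Of the 16 dissociation stress genes, Atf3 rose from 17.8 CPM to 634 and 1130 (log2 difference 4.88, edgeR adjusted p = 0.00287) and Btg2 from 121 to 611 and 995 (1.98, edgeR adjusted p = 0.019). The heat shock genes Hspa1b (160 CPM against 93.0 and 121, edgeR adjusted p = 0.0162) and Hspa1a (178 CPM against 119 and 167, edgeR adjusted p = 0.0432) fell. The list's median was 1.10, while in T/NK-like cells its summed level was lower in both KLF2 libraries than in the vector library. These genes respond to tissue digestion, which lasted 30 min for every library per the labels, and their part in the members' differences was not tested.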

How the data were processed

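The matrices were deposited as raw UMI counts, which PISA v1.0 wrote per the file headers, and the build was GRCm38 per the submitters' processing notes. Aligner, annotation and cell calling: not given in the sources used here. Whether reads from pseudogene copies were counted under Krt8 or Krt18 is not given either. Counts of vector replicate 1 were not analysed here, and a gene missing from a library's list was taken as 0.

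Barcodes were kept from 300 genes upward if mitochondrial UMIs made up no more than 25%. The members and gene lists were left out of the 2000 variable genes. With 30 components and 15 neighbours, scanpy 1.11.5 and leidenalg 0.10.2 clustered the cells at resolution 1.0. A cluster was named where the markers of a type were raised by a mean log2 change, with 20 CPM added, that reached 1.0 and led the next type by 0.5, with at least 3 markers raised. Unnamed clusters joined the compartment under 100 CPM of Ptprc, 100 of Pecam1 and 2000 of Col1a1 plus Col3a1. Scrublet called 0 doublets in every library, so it did not work here, and a fit without the top 5% of its scores was an alternative.

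Sums per library went into the quasi-likelihood test of edgeR 4.0.16 (TMM, filterByExpr, Benjamini-Hochberg adjusted p at 0.05 over all genes tested), with 1 residual degree of freedom. The code was tested on simulated data. DESeq2 1.42.0 was an alternative. From each list the 2 genes with the largest change past the threshold in each direction are named, except where a gene is not reported here, and for each member of at least 10 CPM the 3 genes of most similar pattern. Positions are from GENCODE M21 and promoter stretches from RefSeq. The members, lists and rules were chosen with earlier results of these data known.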

Additional observations from a re-analysis of the deposited data

How the results depend on the processing

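In the compartment 7 members were called higher under every other setting that gave a test, 6 with the Ibsp and Serpinf1 cluster added (Epcam adjusted p = 0.0505) and 6 higher with 2 lower without the S100a14 and Ly6d cluster, where Krt8, Krt18 and Epcam (log2 difference 0.91, adjusted p = 0.163) are lower by the choice of cells. Those 2 fits, and the one without the Prr9 and Tchh cluster, were chosen after seeing the data. Over the alternatives, the adjusted p of Krt8 ran from 0.0194 to 0.225 and that of Epcam from 2.32e-05 to 0.163. All genes called in the compartment fell from 6044 to 3433 with cells thinned to 1000 UMIs, which leaves fewer UMIs. In hepatocyte-like cells 0 members were called under every alternative. The 158 genes called there became 105 with no filter on low counts, 36 with the DESeq2 Wald test and 51 with thinned cells, and the cause was not tested. Leaving out a KLF2 library leaves 1 library a group, so it gives values with no test: without KLF2 replicate 2 the log2 difference of Krt8 in hepatocyte-like cells turned from 0.31 to -0.18 (0.65 without KLF2 replicate 1), and the cause was not tested. In the compartment 6 member values moved by more than the SE of the main fit when a KLF2 library was left out, and none changed sign. The vector library could not be left out. No paired analysis was possible because the labels pair no vector mouse with a KLF2 mouse. A fit without bile duct cells was not run, since no cluster was so named.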
